A study of Schizosaccharomyces pombe with 6 samples.

Results

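The core histone genes of fission yeast (Schizosaccharomyces pombe) were examined for DNA recovered with the recombination protein Rad52. The genes were hta1, htb1, hta2, hht1, hhf1, hht2, hhf2, hht3 and hhf3, 9 in all, and a probe belonged to a gene when it overlapped the annotated gene or lay within 500 bp of it. Values could be assigned to 6 of the 9 genes, through 27 of the 42707 probes on the array. The other 3 genes, hta2, hht1 and hhf1, lie on the part of chromosome I beyond 3.7 Mb, where the array's coordinates and the annotation are out of register by about 6150 bp, and no value was assigned to them.

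The series held 3 arrays labelled ∆rad3, for a deletion of the gene of the checkpoint kinase Rad3, and 3 labelled WT. Both strains had the cdc25-22 mutation, which makes the phosphatase for entry into mitosis sensitive to heat. Their cells were held at 36.5 °C for 4 h and returned to 25 °C. Hydroxyurea, which blocks ribonucleotide reductase and so slows replication, was present at 6 mM, and cells were taken at 60 min. The labels of the ∆rad3 arrays and of WT replicate 3 put the drug 10 min after release and name an RNA extraction, and those of the other WT arrays describe chromatin immunoprecipitation. Each array compared immunoprecipitated DNA (IP) with input DNA, and a level is log2 IP/input with the array's median at 0, averaged over the probes of a gene. No control IP without the antibody was used here, so unspecific recovery of DNA is part of every level.

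The median input signal was 9.58, 12.9 and 6.53 times the local background on ∆rad3 replicates 1, 2 and 3, and 20.01, 14.7 and 5.04 times on WT replicates 1, 2 and 3. In the input, 9 of the 26 coding probes of rad3 were not well above background on each of the 3 ∆rad3 arrays, against 0 on WT replicates 1 and 3. On the library labelled WT replicate 2, 24 of these 26 probes were not well above background, so it goes against its label at this gene. Differences, calls and counts are therefore also given with it left out. Nothing in the labels says that the replicates were separate cultures, and the p-values cover the spread among these arrays alone.

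Core histones H2A, H2B, H3 and H4 form the octamer on which nuclear DNA is wound, and cells make most of them in S phase, when new DNA has to be packaged. In fission yeast hta1 and hta2 encode H2A, htb1 is the single gene of H2B, and the H3 genes hht1, hht2 and hht3 each stand head to head with an H4 gene, hhf1, hhf2 and hhf3. The hta1 and htb1 genes also diverge from a common promoter, whereas hta2 stands alone. Transcription of these genes peaks in S phase, with Ams2 as an activator and the HIRA proteins Hip1 and Slm9 as repressors outside S phase.

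The regions between the annotated starts of the 3 gene pairs with values are shown because they carry a feature that the choice of genes did not use. They are from RefSeq's ASM294v3 assembly, forward strand, at chrIII:1412182-1412358 (177 bp), chrII:1364985-1365118 (134 bp) and chrII:3529566-3529766 (201 bp). Capitals mark AACCCT or its reverse complement AGGGTT.
hta1-htb1: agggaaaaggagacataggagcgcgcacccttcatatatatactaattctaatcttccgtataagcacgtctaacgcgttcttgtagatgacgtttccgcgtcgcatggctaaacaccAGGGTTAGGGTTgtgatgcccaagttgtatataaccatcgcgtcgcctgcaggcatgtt
hhf2-hht2: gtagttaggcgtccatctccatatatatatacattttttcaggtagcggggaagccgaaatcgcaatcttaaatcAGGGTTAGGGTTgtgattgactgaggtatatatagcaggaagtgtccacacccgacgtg
hht3-hhf3: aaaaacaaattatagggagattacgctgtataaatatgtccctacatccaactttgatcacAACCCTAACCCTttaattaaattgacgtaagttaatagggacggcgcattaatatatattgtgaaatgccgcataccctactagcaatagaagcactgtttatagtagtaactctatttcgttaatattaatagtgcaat
Each region held 2 copies of the motif side by side on the same strand. The region between hhf1 and hht1 (132 bp) and the 300 bp upstream of hta2 also held 2 adjacent copies each. The search covered both strands. Windows of the same length were taken upstream of all protein-coding genes, 5112 for each length. At least 1 copy was in 6.14%, 5.05% and 6.85% of windows as long as the 3 printed regions, in their order. At least 2 copies were in 0.51%, 0.45% and 0.55% of them. For windows of 132 bp and 300 bp, at least 1 copy was in 4.99% and 9.57%, and at least 2 copies in 0.45% and 0.80%. A match is a stretch of letters and says nothing of which protein was bound there.

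IP/input was highest at the pair of H2A and H2B genes, above all in WT. It was lower in ∆rad3 than in WT on average at all 6 genes, against 48.7% of all genes, and neighbouring members share probes. With WT replicate 3 as the only WT array, the difference was above 0 at hhf2, hht2, hht3 and hhf3. At the H2B gene all ∆rad3 arrays lay below all WT arrays, as they did at 6.55% of all genes. No difference between the strains passed the test after adjustment over all genes.

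The H2B gene htb1 (SPCC622.09, III 1412359 to 1413677, forward strand, 8 probes) had levels of 0.72, 0.34 and 0.12 on ∆rad3 replicates 1, 2 and 3, against 1.10, 1.26 and 0.82 on the WT replicates in the same order. All 3 WT arrays lay above all 3 ∆rad3 arrays. Means were 0.39 ± 0.30 in ∆rad3 and 1.06 ± 0.22 in WT (SD, n = 3 each). Among the 4547 genes tested, htb1 ranked 14th from the top in WT and 357th in ∆rad3. The difference, ∆rad3 minus WT, was -0.67 with a standard error of 0.19, the most negative of all 4547. Its adjusted p was 0.431 by limma, with Benjamini-Hochberg adjustment over all genes (unadjusted p = 0.0049 by limma). On the 3 slides, each of which carried 1 array of either strain, the differences were -0.38, -0.92 and -0.70. It was -0.57 with the library labelled WT replicate 2 left out, and limma's adjusted p was again 0.431. With the background corrected by normexp it was -0.26.

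The H2A gene hta1 (SPCC622.08C, III 1411144 to 1412181, reverse strand, 6 probes) had levels of 0.70, 0.15 and 0.18 on the ∆rad3 arrays, against 0.97, 0.94 and 0.60 on the WT arrays. The strains overlapped here, because ∆rad3 replicate 1 lay above WT replicate 3. Means were 0.35 ± 0.31 in ∆rad3 and 0.84 ± 0.21 in WT. The difference was -0.49 with a standard error of 0.19 (limma adjusted p = 0.595), and -0.44 without the library labelled WT replicate 2. ∆rad3 was the lower strain on each slide, by -0.27, -0.79 and -0.42.

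At the H3 and H4 pair of hhf2 and hht2 on chromosome II, levels were lower and the strains closer together. The H4 gene hhf2 (SPBC8D2.03C, 1364189 to 1364984, reverse strand, 6 probes) stood at 0.53, 0.17 and 0.01 on the ∆rad3 arrays, against 0.76, 0.55 and 0.22 on the WT arrays. The H3 gene hht2 (SPBC8D2.04, 1365119 to 1365818, forward strand, 6 probes) stood at 0.43, 0.29 and -0.04 in ∆rad3, against 0.74, 0.50 and 0.11 in WT. At both genes the strains overlapped, and replicate 3 was the lowest array of each strain. The differences were -0.27 at hhf2 and -0.22 at hht2, each with a standard error of 0.19 (limma adjusted p = 0.688 and 0.742). With the library labelled WT replicate 2 left out they were -0.25 at hhf2 and -0.20 at hht2. Leaving out 1 array at a time moved them between -0.42 (without WT replicate 3) and -0.15 (without WT replicate 1) at hhf2, and between -0.39 and -0.07, without the same arrays, at hht2. Without ∆rad3 replicate 3 they were -0.16 at hhf2 and -0.09 at hht2, and without ∆rad3 replicate 1 -0.42 at hhf2.

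The arrays disagreed most at hht3 and hhf3, the pair farther along chromosome II. The H3 gene hht3 (SPBC1105.11C, 3528800 to 3529565, reverse strand, 4 probes) had levels of 0.41, -0.30 and -0.29 on the ∆rad3 arrays, against 1.02, 0.50 and -0.22 on the WT arrays. The H4 gene hhf3 (SPBC1105.12, 3529767 to 3530388, forward strand, 4 probes) had 0.05, 0.08 and -0.23 in ∆rad3, against 0.87, 1.31 and -0.37 in WT. The library labelled WT replicate 2 and WT replicate 1 were high at both genes, whereas WT replicate 3 was below 0, within the range of the ∆rad3 arrays at hht3 and below it at hhf3. The difference was -0.49 with a standard error of 0.30 at hht3 and -0.63 with one of 0.35 at hhf3 (limma adjusted p = 0.679 and 0.660). The difference at hht3 was -0.46 with the library labelled WT replicate 2 left out, -0.82 without WT replicate 3 and -0.20 without WT replicate 1, when its WT level was 0.14. At hhf3 slide 3 went the other way, by 0.15, and its difference was -0.28 once the library labelled WT replicate 2 was left out. Without WT replicate 3 the difference at hhf3 was -1.12, and the gene stood at 1.09 in WT and was called enriched there (limma adjusted p = 0.0151).

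**Figure D1:**
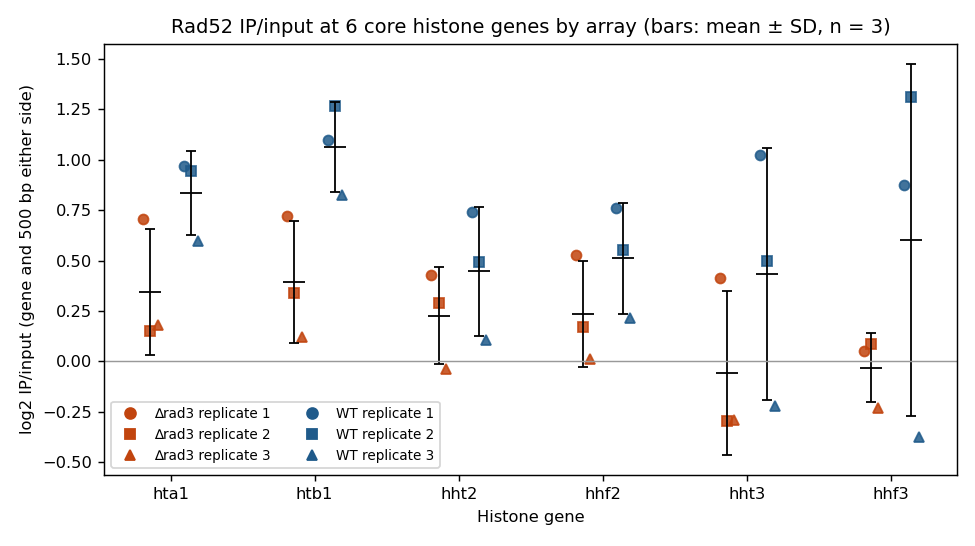
Levels of the 6 histone genes with values, as log2 IP/input over each gene and 500 bp either side, by array. Orange points are ∆rad3 and blue points WT, the marker shape gives the replicate, and bars are the mean ± SD of 3 arrays; the library labelled WT replicate 2 goes against its label at rad3. WT points stand above all ∆rad3 points at htb1, and the WT arrays of hhf3 spread from -0.37 to 1.31.

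A gene was called enriched in a strain when its mean level was at least 0.5 with an adjusted p under 0.05 by limma. In ∆rad3 0 of the 6 genes were called enriched, where 115 of all 4547 genes (2.53%) were, and limma's unadjusted p was under 0.05 for hta1 and htb1. In WT 3 of the 6 were called, hta1, htb1 and hhf2 (adjusted p = 0.00527, 0.00236 and 0.0334), where 231 of all genes (5.08%) were. The call at hhf2 was lost in 10 of 19 alternative settings, among them leaving out any 1 of the WT arrays or ∆rad3 replicate 2 (limma adjusted p from 0.0549 to 0.109). With the library labelled WT replicate 2 left out, hta1 and htb1 kept their calls (limma adjusted p = 0.0216 and 0.00790), and 147 of all genes (3.23%) were called in WT and 218 (4.79%) in ∆rad3. With the slide as a block hhf3 was called in WT as well (limma adjusted p = 0.0291), making 4 of 6, where 276 of all genes were called in WT, and 193 in ∆rad3. All 3 calls in WT were lost when the background was corrected by normexp from the raw spot signals, a setting in which 0 of all genes were called in WT.

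The levels in WT ran from htb1 at 1.06 through hta1 at 0.84, hhf3 at 0.60, hhf2 at 0.51 and hht2 at 0.45 to hht3 at 0.43. The gap between htb1 and hta1 was about as large as the SD of either gene, and htb1 was the higher on all 3 WT arrays. Every other neighbouring pair in this order differed by less than the larger of its SDs. The median level of the 6 genes was 0.23 in ∆rad3 and 0.56 in WT, against 0.00 in ∆rad3 and -0.01 in WT over all genes.

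Between the strains, 0 of 4547 genes passed an adjusted p of 0.05 by limma in either direction. At an unadjusted p of 0.05, 121 genes (2.66%) were lower in ∆rad3 and 250 (5.5%) higher, and hta1 and htb1 were the members among the lower ones. The mean was lower in ∆rad3 at 6 of the 6 histone genes, where this held for 48.7% of all genes, and neighbouring members share probes. At 1 of the 6, htb1, all ∆rad3 arrays lay below all WT arrays, where this held for 298 genes (6.55%). At 0 of the 6 did all ∆rad3 arrays lie above all WT arrays, where 379 genes (8.34%) had this order. With the library labelled WT replicate 2 left out, the mean was again lower in ∆rad3 at 6 of the 6 (49.8% of all genes), htb1 was again the 1 gene with all ∆rad3 arrays below the remaining WT arrays (486 of all genes), and hta1 and htb1 were again lower at an unadjusted p of 0.05 by limma (2.35%). With the slide as a block 3 genes were higher in ∆rad3 and none of the 3 was a histone gene, and the adjusted p of htb1 was 0.160 by limma. When WT replicate 3, the WT array whose protocol text matches that of the ∆rad3 arrays, was the only WT array in the fit, the differences were -0.43 at htb1 and -0.25 at hta1, and above 0 at hhf2, hht2, hht3 and hhf3, at 0.02, 0.12, 0.16 and 0.34. The part of the protocol or of the labelling in the difference was not tested.

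IP and input were next taken apart, each as log2 signal with its array's median at 0. The IP signal at htb1 was 0.63, 0.44 and 0.49 on the ∆rad3 arrays, against 1.18, 1.22 and 1.28 on the WT arrays. The WT arrays lay above the ∆rad3 arrays with a wide gap and spread little. The difference was -0.70 with a standard error of 0.16 (limma adjusted p = 0.287, and 0.0904 with the slide as a block). At hta1 the IP signal was -0.27, -0.34 and -0.00 in ∆rad3, against 0.43, 0.03 and 0.68 in WT, a difference of -0.59 (limma adjusted p = 0.736). Here too the arrays of the strains did not overlap, so that 2 of the 6 genes had all ∆rad3 IP signals below all WT ones, where 5.78% of all genes did. The other IP differences were -0.29 at hhf2, -0.25 at hht2, -0.50 at hht3 and -0.60 at hhf3, with overlapping arrays at each. With the library labelled WT replicate 2 left out the IP differences were -0.71 at htb1, -0.76 at hta1, -0.39 at hhf2, -0.14 at hht2, -0.63 at hht3 and -0.23 at hhf3, and all ∆rad3 signals lay below the remaining WT ones at 4 of the 6 genes (10.2% of all genes).

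The input signal at htb1 was -0.08, 0.13 and 0.41 in ∆rad3, against 0.09, -0.05 and 0.47 in WT, and the arrays of the strains were interleaved. At 0 of the 6 genes were all ∆rad3 inputs below all WT inputs, where 1.5% of all genes had this order. Over the 6 genes the input differences ran from -0.08 at hta1 to 0.05 at hhf3, and from -0.31 at hta1 to 0.08 at hht2 with the library labelled WT replicate 2 left out. In both the IP and the input alone, 0 genes passed limma's adjusted p. At an unadjusted p of 0.05 the IP was lower in ∆rad3 at 94 genes (2.07%), hta1, htb1 and hht3 among them, and higher at 156 (3.43%). For the input these counts were 2 (0.044%) lower and 10 (0.22%) higher, and none was a histone gene. The difference in IP/input at the H2A and H2B genes was thus as large in the IP channel alone, while the input channel differed between strains by less than the SD of either strain.

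**Figure D2:**
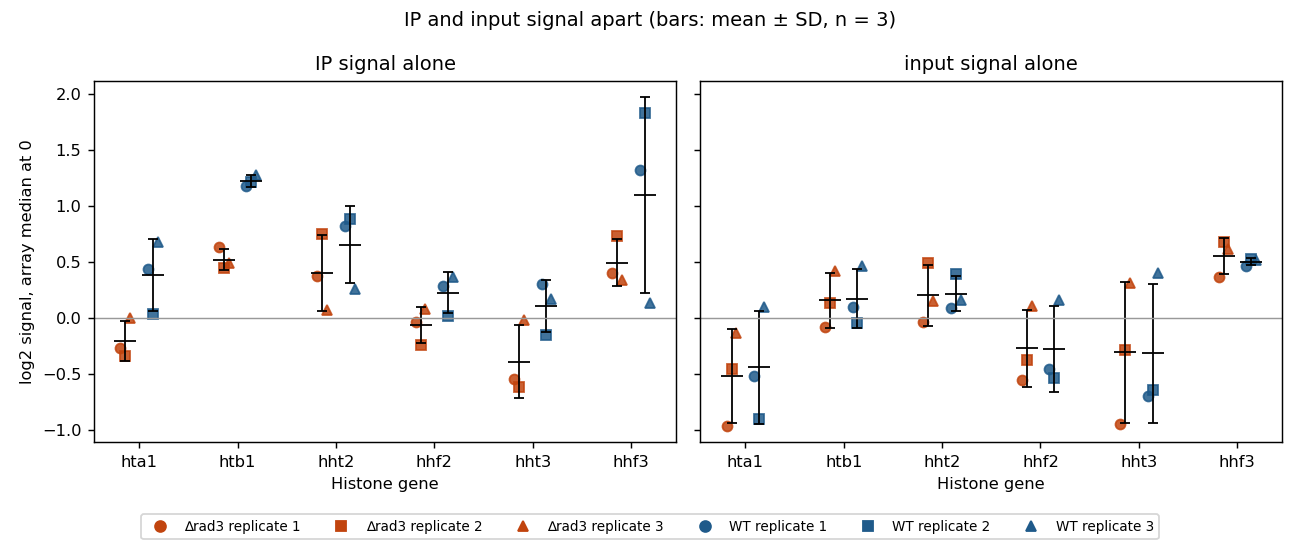
IP signal (left) and input signal (right) of the 6 genes by array, as log2 with the array median at 0; orange is ∆rad3, blue is WT, and bars are the mean ± SD of 3 arrays. At htb1 the IP points of ∆rad3 lie between 0.44 and 0.63 and those of WT between 1.18 and 1.28, whereas the input points of the strains mix.

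Along the loci, IP/input was highest on the flanks, past the stop codons, rather than over the promoters or the coding parts of htb1 and hht2. No probe was centred in the coding parts of hta1, hhf2, hht3 or hhf3. This division of the probes was chosen after the values had been seen. At the H2A and H2B pair the probe at III 1413642 to 1413701, across the 3′ end of htb1, had 1.42, 1.46 and 0.89 on the ∆rad3 arrays, against 1.93, 2.54 and 1.32 on the WT arrays. The probe at III 1411054 to 1411112, past the 3′ end of hta1, had 1.42, 0.90 and 0.89 in ∆rad3, against 1.53, 2.28 and 1.95 in WT. Both probes were above the array median on all 6 arrays, and WT was the higher strain on each slide. The probe across the 3′ end of htb1 also lies within the neighbouring gene sec5.

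High probes past the stop codons were also found at the H3 and H4 pairs. The probe at II 1365899 to 1365958, past hht2, had 0.59, 0.51 and 0.56 in ∆rad3, against 1.68, 1.71 and 0.68 in WT. The probe at II 1364137 to 1364196, across the 3′ end of hhf2, had 0.91, 0.41 and 0.27 in ∆rad3, against 1.34, 1.45 and 0.91 in WT. The probe at II 3530533 to 3530592, past hhf3, had 0.00, 0.95 and 0.13 in ∆rad3, against 1.19, 2.42 and 1.26 in WT. At the probes past hht2 and hhf3 all WT arrays lay above all ∆rad3 arrays, and at the probe across the end of hhf2 they met. These probes are named because their WT values were the highest on their side of the locus, which favours that order. The share of all probes with that order was not counted. On the hht3 side the highest probe in WT, at II 3528503 to 3528562, had 0.16, 0.17 and 0.16 in ∆rad3, against 1.33, 1.29 and 0.04 in WT. There WT replicate 3 lay below all ∆rad3 arrays. That probe lies within the neighbouring gene rav1.

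**Figure D3:**
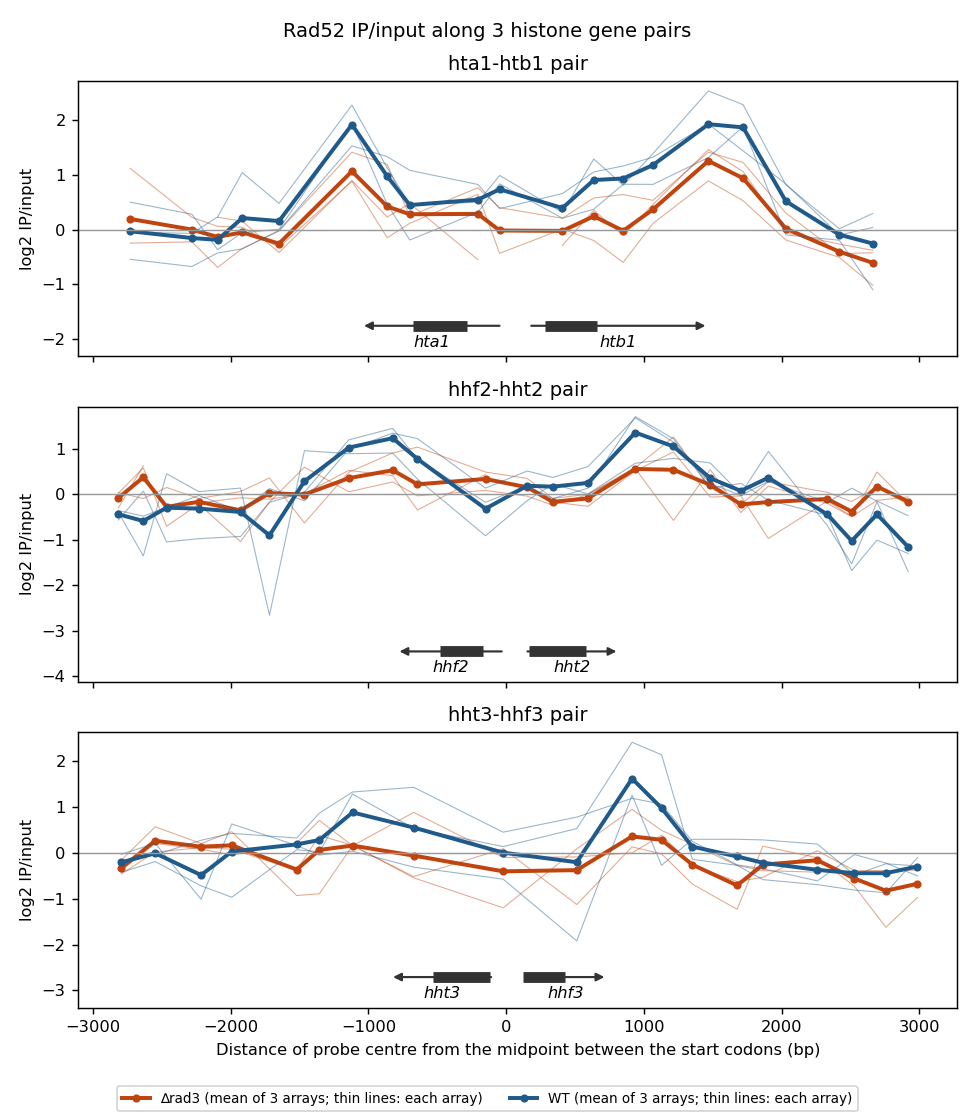
Log2 IP/input by probe along the 3 gene pairs, against the distance in bp of the probe's centre from the midpoint between the start codons. Thick lines are the means of 3 arrays (∆rad3 orange, WT blue), thin lines single arrays, arrows the annotated genes with their direction and thick bars the coding sequences. In WT the mean has 2 summits at each pair, outside the coding sequences of the pair, with lower values between them.

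Averaged over the probes beyond the stop codons, out to 500 bp past the gene ends, the H2A and H2B pair had levels of 0.95, 0.64 and 0.25 on the ∆rad3 arrays (7 probes), against 1.40, 1.55 and 1.01 on the WT arrays. Between the stop codons, where the coding sequences and the promoter lie, it had 0.49, -0.16 and 0.00 in ∆rad3 (4 probes), against 0.73, 0.77 and 0.43 in WT. The outer part exceeded the inner part on all 6 arrays, by 0.47, 0.80 and 0.25 in ∆rad3 and by 0.67, 0.78 and 0.58 in WT. In the IP alone this excess averaged 2.38 ± 0.32 in ∆rad3 and 2.69 ± 0.24 in WT. In the input alone it averaged 1.88 ± 0.19 in ∆rad3 and 2.01 ± 0.14 in WT. A probe value was missing for ∆rad3 replicate 2 between the stop codons of this pair and of hhf2 and hht2, and the mean was taken over the rest. Some outer probes lie within the neighbouring genes sec5, sfi1 and rav1, at the 3 pairs in the order hta1-htb1, hhf2-hht2 and hht3-hhf3.

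At hhf2 and hht2 the outer part had 0.71, 0.29 and 0.04 in ∆rad3 (6 probes), against 1.16, 1.08 and 0.60 in WT. The inner part had 0.25, 0.13 and -0.07 in ∆rad3 (3 probes), against 0.34, -0.03 and -0.28 in WT, so the WT arrays were above 0.5 past the stop codons and mixed around 0 between them. The excess of the outer part was 0.47, 0.16 and 0.11 in ∆rad3 and 0.83, 1.11 and 0.88 in WT. The strains did not overlap in this excess, but the division of the probes was chosen after the values had been seen. How many other gene pairs had this order was not counted. The 3 inner probes include the probe near the start of hhf2 at which ∆rad3 was the higher strain, by 0.65. In the IP alone the excess averaged -0.46 ± 0.45 in ∆rad3 and 0.40 ± 0.76 in WT. In the input alone it averaged -0.71 ± 0.43 in ∆rad3 and -0.54 ± 0.62 in WT. What sets the excess in IP/input was not tested.

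At hht3 and hhf3 the outer part had 0.34, 0.26 and -0.38 in ∆rad3 (6 probes), against 1.11, 1.16 and -0.21 in WT, and 1 probe covered the inner part. The excess was 0.44, 1.45 and -0.47 in ∆rad3 and 0.66, 1.02 and 0.36 in WT. It was above 0 on all arrays except ∆rad3 replicate 3. The mean in ∆rad3, 0.48, became -0.01 without ∆rad3 replicate 2 and 0.95 without ∆rad3 replicate 3. In the IP alone the excess averaged -0.42 ± 1.35 in ∆rad3 and 0.30 ± 1.21 in WT. In the input alone it averaged -0.90 ± 0.87 in ∆rad3 and -0.38 ± 0.96 in WT.

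Measured in the same way, the mean excess in WT placed hhf2 and hht2 6th, hht3 and hhf3 19th, and hta1 and htb1 20th from the top among 1080 divergent pairs of coding genes. In ∆rad3 they were 267th, 45th and 35th, and the place of hht3 and hhf3 there rests on a mean that turns on single arrays. The division was chosen after the values at these loci had been seen, which favours high places. The inner means rest on 3 probes at hhf2 and hht2, 1 at hht3 and hhf3 and 4 at hta1 and htb1. The places in WT include the library labelled WT replicate 2 and were not computed without it. Leaving out 1 array at a time gave a mean excess in ∆rad3 of 0.14 to 0.31 at hhf2 and hht2 (0.14 without ∆rad3 replicate 1) and of 0.36 to 0.63 at hta1 and htb1. The median excess over these pairs was 0.09 in ∆rad3 and 0.14 in WT, and 237 pairs (21.9%) had an excess above 0 on all 6 arrays. With the background corrected by normexp the mean excess in WT was 0.35 at hta1 and htb1 and 0.57 at hhf2 and hht2, and it was, with the library labelled WT replicate 2 left out, 0.62, 0.85 and 0.51 at hta1 with htb1, hhf2 with hht2 and hht3 with hhf3. The other pairs were mostly longer, with a median of 3895 bp from stop to stop, more than any of the histone pairs. The A+T content of the probes was 62.6% beyond and 63.5% between the stop codons at hta1 and htb1, 64.2% and 60.8% at hhf2 and hht2, and 64.4% and 66.7% at hht3 and hhf3.

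**Figure D4:**
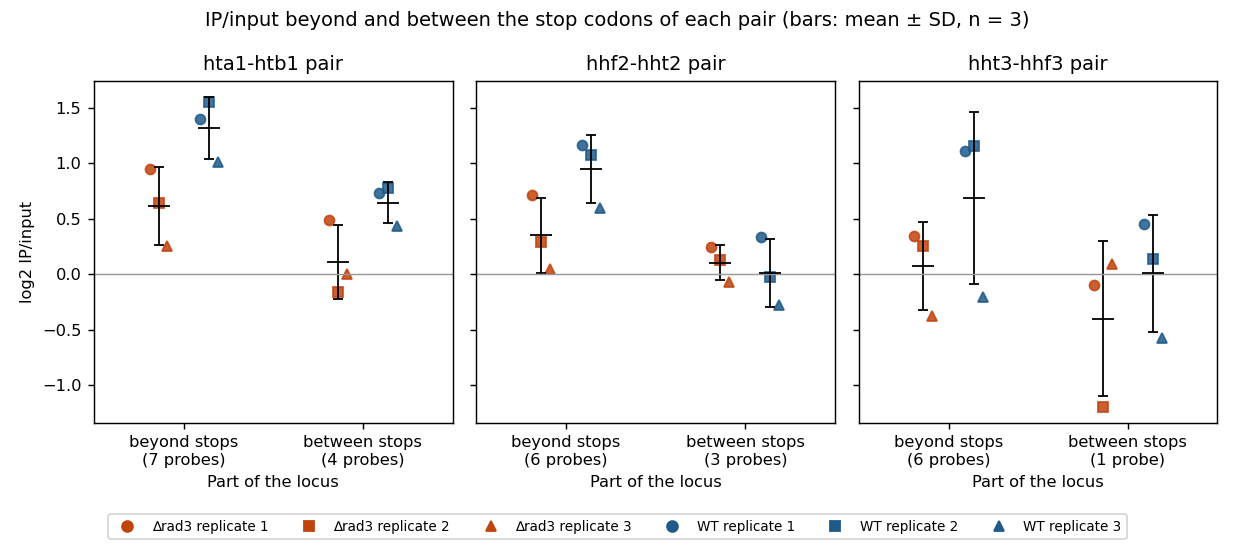
Log2 IP/input beyond and between the stop codons of each pair by array, with the mean ± SD of 3 arrays (∆rad3 orange, WT blue, marker shape the replicate). In WT the outer probes of hhf2 and hht2 lie between 0.60 and 1.16 and the inner ones between -0.28 and 0.34.

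The strain difference lay in both parts of hta1 with htb1, at -0.71 beyond the stop codons and -0.54 between them. It did so at hht3 with hhf3 as well, at -0.61 and -0.41. At hhf2 and hht2 it was -0.60 beyond the stop codons and 0.09 between them. The mean of ∆rad3 was below that of WT at 26 of the 27 probes, where this held for 50.9% of all probes, and probes closer together than a chromatin fragment are not independent. The exception was the probe at II 1364811 to 1364870 near the start of hhf2, which was higher in ∆rad3 by 0.65. Single probe differences ran from -1.26 to 0.65. No probe passed the adjusted p by limma (0 of 42659), and at an unadjusted p of 0.05, 8 of the 27 were lower in ∆rad3 and 0 higher, where 1.42% of all probes were lower and 3.26% higher. With the library labelled WT replicate 2 left out, the mean was lower in ∆rad3 at 25 of the 27 (50.7% of all probes), and 2 of the 27 were lower at that unadjusted p by limma (1.29%). Over the outer probes of hta1 and htb1 the IP signal alone was 1.41, 1.40 and 1.62 in ∆rad3, against 2.28, 2.31 and 2.47 in WT. The input there was 0.47, 0.79 and 1.40 in ∆rad3, against 0.89, 0.76 and 1.47 in WT, so the strains were apart in the IP and overlapped in the input.

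IP/input moved with base composition on the ∆rad3 arrays more than on the WT arrays. Across probes, Pearson's r between A+T content and log2 IP/input was 0.27, 0.16 and 0.18 on the ∆rad3 arrays, and -0.02, 0.00 and 0.11 on the WT arrays, over 33388 to 36364 probes that share an array and its labelling. The 0.11 was on WT replicate 3, whose protocol text matches that of the ∆rad3 arrays, and the 0.00 on the library labelled WT replicate 2. The part of the protocol in this contrast was not tested. In the class of 60 to 65% A+T, which holds most of the probes, the mean was -0.03 in both strains. In the class of 65 to 70% it was 0.10 in ∆rad3 and 0.01 in WT.

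The genes next to the loci were measured in the same windows, which for 4 of the 6 neighbours take in probes of the histone windows. The exocyst gene sec5, whose 3′ end overlaps that of htb1 and whose window shares 4 of its 14 probes, had 0.10, 0.01 and -0.21 in ∆rad3, against 0.35, 0.76 and 0.19 in WT. On the other side SPCC622.07 averaged -0.12 ± 0.16 in ∆rad3 and -0.04 ± 0.38 in WT. Around hhf2 and hht2, vps68 averaged 0.16 ± 0.07 in ∆rad3 and 0.04 ± 0.15 in WT, and sfi1, a gene of the spindle pole body, -0.03 ± 0.03 in ∆rad3 and -0.15 ± 0.10 in WT. Around hht3 and hhf3, rav1 averaged -0.11 ± 0.11 in ∆rad3 and 0.07 ± 0.12 in WT, and SPBC1105.13C -0.35 ± 0.26 in ∆rad3 and -0.09 ± 0.07 in WT. The windows of sfi1 and rav1 shared 3 of 16 and 3 of 19 probes with the histone windows and that of SPBC1105.13C 1 of 8, and those of SPCC622.07 and vps68 shared 0. The means of the neighbours other than sec5 ran from -0.35 to 0.16 over both strains.

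The coding sequences of the gene copies are alike, which bears on what a coding probe can tell apart. The H3 copies shared 88.3% to 92.7% of 411 bases, the H4 copies 91.3% to 93.3% of 312 bases, and hta1 and hta2 82.3% of 396 bases. A coding probe of a copied gene may therefore bind DNA of another copy. By their centres, the coding probes lay in hht2 and in htb1, which has no other copy. The level between the stop codons of hhf2 and hht2 is uncertain to that extent. The other probes between stop codons were centred between the start codons. The probes past the 3′ ends lie outside the histone coding sequences.

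For hta2, hht1 and hhf1 only unassigned signal on the same part of chromosome I can be given, in the array's own coordinates. Within 10 kb of the annotated positions, runs of at least 2 neighbouring probes with a WT mean of at least 1 were sought, a rule chosen after the values had been seen. Around the position of hta2 there was 1 run, at I 4046055 to 4046427 (2 probes), with 1.13, 0.62 and 0.50 in ∆rad3, against 1.61, 1.85 and 1.59 in WT. Around hhf1 and hht1 there were runs at I 4694334 to 4695180 (4 probes), with 0.93, 1.06 and 0.89 in ∆rad3, against 1.70, 1.63 and 1.55 in WT, and at I 4692411 to 4692881 (2 probes), with 1.60, 0.92 and -0.11 in ∆rad3, against 1.88, 2.05 and 1.25 in WT. In the first and second of these runs all WT arrays lay above all ∆rad3 arrays, and the rule, which picks high WT values, favours that order. No gene was assigned to these runs.

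Histone variant and histone handling genes served as a view of the rest of the pathway. The variant gene pht1, for H2A.Z, averaged 0.09 ± 0.16 in ∆rad3 and 0.13 ± 0.32 in WT. The variant gene cnp1, for the centromeric H3 of fission yeast, averaged -0.25 ± 0.12 in ∆rad3 and -0.25 ± 0.25 in WT, and neither was called in either strain. Of 22 listed regulators, chaperones and modifiers 19 had values, with medians of 0.01 in ∆rad3 and -0.18 in WT. In ∆rad3 0 of the 19 were called, where 2.53% of all genes were, and in WT 1 of the 19, a share near the 5.08% of all genes. It was mis16, a chaperone needed to load centromeric H3, at 0.30 ± 0.08 in ∆rad3 and 0.73 ± 0.28 in WT. The difference at mis16 was -0.43, and at nap1, a chaperone of H2A and H2B, -0.30, with limma adjusted p = 0.595 and 0.6001. Those at the acetyltransferase gene hat1, at pob3, of the FACT complex, and at chz1, a chaperone of the H2A.Z dimer in budding yeast, were 0.32, 0.29 and 0.27 (limma adjusted p = 0.620, 0.621 and 0.622).

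Lists of other genes were set beside the histone genes and beside all genes, of which 2.53% were called in ∆rad3 and 5.08% in WT (0 in WT with normexp). Of 12 measured glycolysis and fermentation genes 0 were called enriched in ∆rad3 and 6 in WT, with medians of 0.15 in ∆rad3 and 0.50 in WT. Of 114 genes of ribosomal proteins 1 was called in ∆rad3 and 11 in WT, with medians of 0.05 in ∆rad3 and 0.18 in WT. Of 10 measured targets of MBF, the transcription factor of the G1 to S transition, 0 were called in either strain, with medians of 0.00 in ∆rad3 and -0.07 in WT. The median difference was -0.49 over the 6 histone genes, -0.39 over the glycolysis genes, -0.16 over the ribosomal genes, -0.04 over the MBF targets and 0.01 over all genes. The mean was lower in ∆rad3 at 6 of 6 histone, 10 of 12 glycolysis, 96 of 114 ribosomal and 6 of 10 MBF genes. Over all genes this share was 48.7%. All ∆rad3 arrays lay below all WT arrays at 1, 7, 16 and 2 genes of these lists in turn, and at 6.55% of all genes. With the library labelled WT replicate 2 left out, the calls in WT were 2 of 6 histone, 5 of 12 glycolysis, 4 of 114 ribosomal and 0 of 10 MBF genes, where 3.23% of all genes were called. The median differences were then -0.36, -0.34, -0.11 and -0.04, in the same order of lists, and 0.00 over all genes.

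The genes whose 6 array values came closest to the mean of hta1 and htb1 were found by Euclidean distance, with genes of the histone loci left out. They were the small nucleolar RNA gene snoZ16 (distance 0.37), eft202, a gene of translation elongation factor 2 (0.39), plb1, for a phospholipase B (0.45), the tRNA gene SPATRNAMET.02 (0.45) and pho84, for a phosphate transporter (0.49). The gene eft202 had 0.56, 0.46 and -0.03 in ∆rad3, against 0.88, 0.99 and 0.60 in WT.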

How the data were processed

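The authors' deposited Agilent Feature Extraction 10.7.3.1 files hold, per the file headers, spot intensity on a linear scale. The processed intensity had background subtraction, spatial detrending and a linear dye normalization. The headers name an extraction protocol ChIP for replicate 2 of either strain and CGH for the other arrays. Spots flagged as outliers numbered 3535 on ∆rad3 replicate 2 and 4 to 464 on the other arrays. The part of the extraction protocol in the differences was not tested. The log10 ratio deposited with it has red on top. By the labels, red is input and green IP on every array, although the series text speaks of reciprocal labelling, so dye bias was not removed.

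Computed here, log2 IP/input came from the processed signals, centred on each array's median, with controls and outlier-flagged spots left out. Probes whose input was well above background on 3 or more of the 6 arrays (42659) were averaged over each gene and 500 bp either side (at least 2 probes, long non-coding RNA genes left out). Both strains entered 1 limma fit (R 4.3.3, limma 3.58.1) with Benjamini-Hochberg adjustment over 4547 genes, and the fit was tested on simulated data. The number of arrays limits the precision. Figures used matplotlib 3.10.9. The alternatives covered background, scaling, filters, flanks, variance, arrays left out and a slide block.

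The files' build is Spombe:NCBI:Feb2002 and the annotation ASM294v3. Probe length followed A+T content without a shift in 108 of 126 windows. On chromosome I beyond 3.7 Mb 18 of 19 windows were best at about 6150 bp, so those genes got no values and no coordinate was converted.

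A replicate number stands for 1 slide and 1 scan, per the file headers. Deviations of same-numbered arrays from the strain means correlated at 0.576, 0.149 and 0.256. For arrays of different number the correlations ran from -0.458 to 0.197. The 0.197, between ∆rad3 replicate 3 and the library labelled WT replicate 2, is above the 0.149 of the replicates numbered 2. The pairing by number therefore rests on the slide and scan. The genes described were the 9 histone genes, their neighbours, 2 variants, a list of regulators with the 5 of smallest p, comparison lists and the 5 genes nearest in pattern. Members and lists were chosen with earlier results of these data known.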

Additional observations from a re-analysis of the deposited data

How the results depend on the processing

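The differences at hta1 and htb1 stayed negative and past no adjusted threshold in 19 alternative settings (-0.67 to -0.25 and -0.83 to -0.26). With arrays of 1 protocol text, WT replicate 3 alone against ∆rad3, the differences reversed to 0.021 at hhf2, 0.12 at hht2, 0.16 at hht3 and 0.34 at hhf3, the WT levels of hht3 and hhf3 to -0.22 and -0.37, 1 histone gene and 275 genes in all were called in WT, and 221 genes in ∆rad3. This setting leaves out 2 WT arrays. With normexp 0 genes and 0 histone genes were called in WT, 4 genes were higher in ∆rad3, 27 single probes differed, the ∆rad3 level of hhf3 was 0.0075, and the WT excess past the stop codons was 0.35 at hta1-htb1 and 0.57 at hhf2-hht2. With arrays scaled to 1 spread 247 genes were called in ∆rad3 and 9 were higher there. With the replicate block (slide) 193 were called in ∆rad3, 3 were higher, 8 differed in IP alone and 5 single probes differed, and the block changed no other call than that of hhf3 in WT. Trended robust variance left 14 genes in ∆rad3. Windows without flanks, which hold fewer probes and lost hht3 and hhf3, gave 6 in ∆rad3, 79 in WT and -0.078 for hht2 in ∆rad3. With long non-coding RNA genes included, an alternative chosen after seeing the data as were those of the outer against the inner probes, 324 and 424 genes were called in ∆rad3 and WT.

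Probes well above background on all arrays gave 0.080 for hhf3 in ∆rad3 and input differences of 0.022 at htb1 and 0.035 at hht2. Medians of probes gave 0.012 for hht3 and 0.096 for hhf3 in ∆rad3. Leaving out 1 array at a time gave 9 to 218 genes called in ∆rad3 (9 without ∆rad3 replicate 3, 26 and 30 without ∆rad3 replicates 2 and 1, 218 without the library labelled WT replicate 2), 110 to 452 in WT (110 without WT replicate 3, 147 without the library labelled WT replicate 2, 452 without WT replicate 1) and 2 to 3 histone genes in WT. The ∆rad3 levels then ran from -0.29 to 0.063 at hht3 and from -0.089 to 0.068 at hhf3. Input differences ran from -0.31 to 0.19 at hta1, -0.15 to 0.13 at htb1, -0.16 to 0.11 at hht2, -0.19 to 0.22 at hhf2, -0.30 to 0.37 at hht3 and -0.013 to 0.14 at hhf3. The cause of these changes was not tested.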
